A study of Homo sapiens with 18 samples.

Results

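The matrix protease and inhibitor genes described here are 9 genes of pericellular proteolysis, picked by gene symbol from the 58815 genes of a raw count table: PLAU, PLAUR, MMP14, MMP2, MMP3, MMP13, TIMP1, TIMP2 and TIMP3. The RNA came from LM2, BrM3 and BoM cells, sublines of the human triple-negative breast cancer line MDA-MB-231 that home more readily to lung, brain and bone, and the question was what depletion of WDR5, a subunit of histone methyltransferase complexes, does to their transcriptomes. Every group carried a doxycycline (DOX)-inducible hairpin and received DOX at 1 μg/mL for 3 days. The shCtrl groups expressed a control hairpin and the shWDR5 groups expressed the single hairpin shWDR5-1. Each of the 3 lines had 3 libraries per hairpin, harvested at different passages, which gave 6 groups and 18 libraries. No knockdown comparison used a second hairpin, so effects of the hairpin and of the loss of WDR5 cannot be told apart here.

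These 9 genes form one proteolytic system. Urokinase (PLAU) binds its receptor on the cell surface (PLAUR) and cleaves plasminogen to plasmin, which degrades fibrin and matrix and activates several matrix metalloproteinases (MMPs). MMP14 is anchored in the membrane and activates the secreted gelatinase MMP2 in a complex that includes TIMP2, while MMP3 (stromelysin 1) and MMP13 (collagenase 3) are secreted. The tissue inhibitors TIMP1, TIMP2 and TIMP3 block MMPs, and TIMP3 stays bound to the matrix. MDA-MB-231 cells are widely used to study invasion through matrix.

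PLAU and PLAUR were the members whose levels moved after knockdown, in opposite directions, and their promoters are shown for that reason. The reference promoter table matched 5 of the 9 members by symbol (PLAU, PLAUR, MMP14, TIMP1 and TIMP3), with 6 entries because PLAU has a second start site. The sequences are the 250 bases before the RefSeq start site on GRCh38.p14, 5′ to 3′ on the gene's own strand, at chr10:73910882-73911131 (plus strand) for PLAU and chr19:43670170-43670419 (minus strand) for PLAUR. Capitals mark the AP-1 motif TGACTCA and the GC box GGGCGG, each searched on both strands.
PLAU: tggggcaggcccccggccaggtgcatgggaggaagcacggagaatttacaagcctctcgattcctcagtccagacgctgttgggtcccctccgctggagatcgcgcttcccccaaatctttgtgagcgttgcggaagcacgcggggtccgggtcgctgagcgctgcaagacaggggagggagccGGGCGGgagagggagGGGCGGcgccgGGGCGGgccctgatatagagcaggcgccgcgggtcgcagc
PLAUR: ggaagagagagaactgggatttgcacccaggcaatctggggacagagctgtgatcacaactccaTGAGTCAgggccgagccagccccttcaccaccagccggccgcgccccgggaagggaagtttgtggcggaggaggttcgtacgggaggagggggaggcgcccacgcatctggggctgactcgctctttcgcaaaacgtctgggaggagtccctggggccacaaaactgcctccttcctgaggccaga
The PLAU window shown is that of the MANE Select start and held 3 GC boxes and 0 AP-1 matches. The window of the other PLAU start (chr10:73910360-73910609) held 0 GC boxes and 0 AP-1 matches. The PLAUR window held 1 AP-1 match, which began 186 bases before the start site, and 0 GC boxes. Among all 35116 RefSeq promoters of the same length, 42.6% held a GC box and 4.2% held the AP-1 motif. TATAAA, present in 10.7% of promoters, was in neither window. The windows of MMP14, TIMP1 and TIMP3 held 1, 2 and 5 GC boxes and 0 AP-1 matches. A match of letters is not a measured binding site.

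WDR5 was checked first. Its level in CPM, the count scaled to library size with TMM factors, was 125 ± 11.1 (SD, n = 3) in LM2 shCtrl and 23.1 ± 2.24 in LM2 shWDR5 libraries, 86.1 ± 6.95 against 21.9 ± 1.42 for BrM3 cells, and 89.5 ± 1.71 against 19.0 ± 4.39 for BoM cells. The shWDR5 libraries held 18.5%, 25.4% and 21.2% of the shCtrl level, with no overlap. Library totals ran from 17485841 to 119667013 counts. Of the 9 members, 8 passed the filter on low counts that left 12081 tested genes, and MMP13 did not. Of these 8, 6 were over the filter in every line, whereas MMP3 was over it in LM2 and BoM libraries alone and MMP2 in LM2 libraries alone. A gene that passes only through the lines where it is high has to differ between lines, so the line values of MMP2 and MMP3 are given as a description. The luminal keratins KRT8 (194 to 447 CPM) and KRT18 (263 to 501 CPM) were present in every library, CDH1, the epithelial cadherin, was at most 0.60 CPM, EPCAM was at most 10.1 CPM, and vimentin (VIM) was between 1495 and 2231 CPM. The summed immune markers (3 genes) were at most 1.11 CPM and the endothelial markers (2 genes) at most 4.73 CPM. In bulk RNA, fewer cells of a kind and less RNA per cell cannot be told apart, and CPM is relative to all counted RNA in a library.

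PLAU fell after WDR5 knockdown in all 3 lines. In LM2 the shCtrl libraries were at 405, 410 and 437 CPM and the shWDR5 libraries at 287, 262 and 302 CPM. In BrM3 the values were 474, 506 and 467 CPM in shCtrl against 269, 293 and 294 CPM in shWDR5. In BoM, where PLAU was lowest, they were 159, 153 and 150 CPM against 75.8, 90.8 and 93.2 CPM. In every line the lowest shCtrl library stood above the highest shWDR5 library. The knockdown left 68.0% of the LM2 level, 59.2% of the BrM3 level and 56.2% of the BoM level. The log2 fold change was -0.56 ± 0.09 (SE) in LM2 (edgeR quasi-likelihood test, adjusted p = 8.1e-04), -0.76 ± 0.09 for BrM3 cells (adjusted p = 5.2e-05) and -0.83 ± 0.09 for BoM cells (adjusted p = 7.7e-06). All 25 alternative fits per line kept the PLAU call. Exons of PLAU share 915 bases, 31.0% of its exon length, with C10orf55 on the opposite strand, which had 7 to 245 counts per library where PLAU had 2344 to 53574. The strand setting of the counting is not given, so reads of this pair may be mixed.

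**Figure D1:**
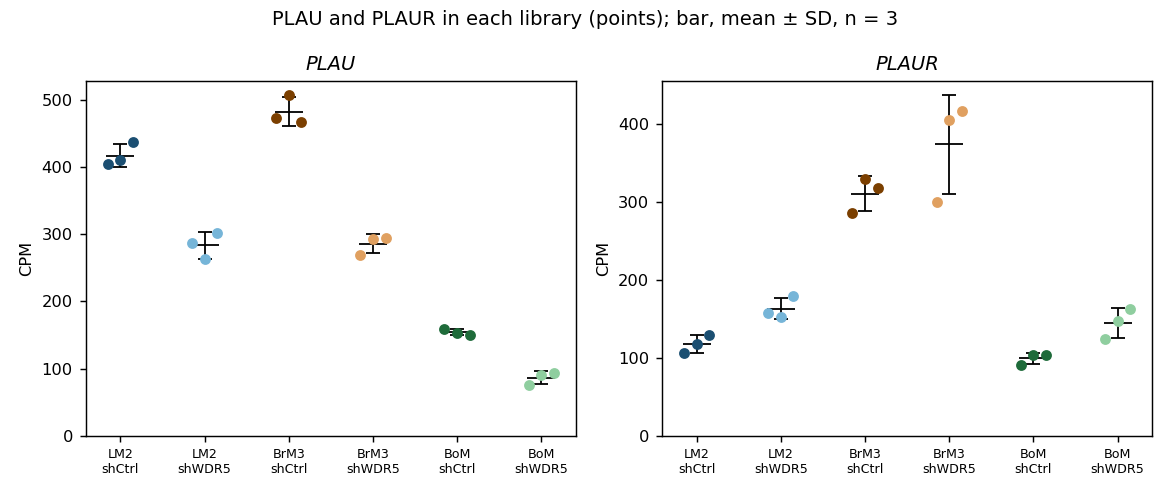
Level in CPM (y axis) of PLAU (left) and PLAUR (right) in each of the 18 libraries (points), by line and hairpin, with the mean and SD of 3 libraries. PLAU is lower in every shWDR5 library than in any shCtrl library of the same line, and PLAUR is higher in LM2 and BoM but overlaps in BrM3.

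PLAUR, the glycolipid-anchored urokinase receptor, rose in LM2 and BoM. The LM2 shCtrl libraries were at 106, 118 and 129 CPM and the shWDR5 libraries at 157, 153 and 179 CPM. In BoM the values were 91.1, 104 and 103 CPM against 124, 147 and 162 CPM. These groups did not overlap. The log2 fold change was 0.47 ± 0.13 (SE) in LM2 (adjusted p = 0.034) and 0.54 ± 0.13 in BoM (adjusted p = 0.0082). In BrM3, with the highest PLAUR of the 3 lines, the shCtrl libraries were at 285, 329 and 317 CPM and the shWDR5 libraries at 299.9, 405 and 416 CPM. The groups overlapped, and the log2 fold change of 0.27 ± 0.13 did not pass (adjusted p = 0.198). The lowest BrM3 shWDR5 value came from replicate 1, the shallowest library of all, and without it the log2 fold change was 0.40 (adjusted p = 0.034). The LM2 call was lost when any of 5 LM2 libraries was left out (shCtrl replicate 1, adjusted p = 0.096; shCtrl replicate 2, 0.107; shWDR5 replicates 1, 2 and 3, 0.081, 0.061 and 0.113), with log2 fold changes between 0.40 and 0.52, and when LM2 was fitted alone (adjusted p = 0.072).

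Over the mean of the 3 lines, PLAU was at -0.71 ± 0.05 (SE) on the log2 scale (adjusted p = 2.1e-08) and PLAUR at 0.43 ± 0.07 (adjusted p = 2.6e-04). These were the 2 of 8 members called in LM2, in BoM and in the mean of lines, and PLAU was the 1 of 8 called in BrM3. Of all tested genes, 6.26% were called in LM2, 10.7% in BrM3, 16.1% in BoM and 35.4% in the mean of lines. The fibroblast markers (6 genes, none at 0 in every library, COL1A1 the most abundant) also had a lower sum after knockdown in BrM3 and BoM, while the LM2 groups overlapped. Their sum was 43.1 to 98.4 CPM in LM2 shCtrl and 35.9 to 55.0 CPM in LM2 shWDR5 libraries, 9.91 to 12.2 against 4.33 to 6.25 CPM in BrM3, and 13.0 to 18.5 against 6.67 to 7.66 CPM in BoM. Between shCtrl and shWDR5 the mean of COL1A1 went from 64.5 to 36.5 CPM in LM2, 8.52 to 3.98 in BrM3 and 5.86 to 2.01 in BoM. COL1A2 went from 5.40 to 2.81 CPM in LM2 and was at most 0.086 CPM in the group means of BrM3 and BoM, and PDGFRB went from 4.59 to 2.82, 2.25 to 1.08 and 9.16 to 5.01 CPM. The defining markers PDGFRA, DCN and LUM were at most 0.72, 0.11 and 0.27 CPM in any library. The part of these markers in the PLAU result was not tested.

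**Figure D2:**
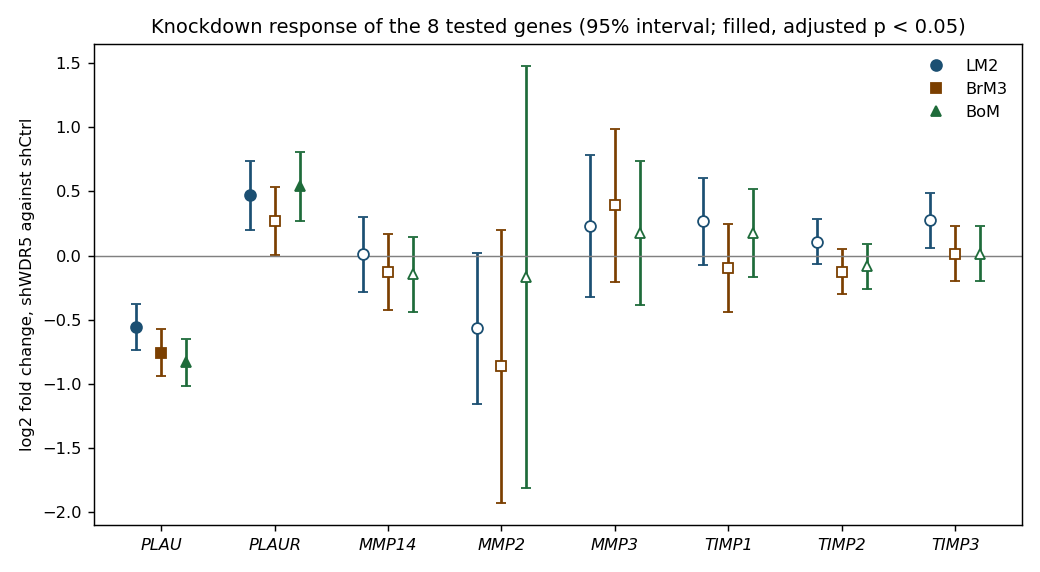
Log2 fold change of shWDR5 against shCtrl (y axis) for the 8 tested genes in LM2 (circles), BrM3 (squares) and BoM (triangles), with 95% intervals from the edgeR fit. Filled symbols passed an adjusted p of 0.05: PLAU in all 3 lines, below 0, and PLAUR in LM2 and BoM, above 0.

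The ratio of PLAU to PLAUR within a library, computed from CPM per kilobase of exon, brings both movements together. It was 5.75, 5.27 and 5.13 in LM2 shCtrl libraries and 2.75, 2.60 and 2.55 in LM2 shWDR5 libraries. In BrM3 it was 2.51, 2.33 and 2.23 against 1.36, 1.09 and 1.07, and in BoM 2.63, 2.24 and 2.20 against 0.927, 0.933 and 0.868. No shWDR5 library reached the ratio of a shCtrl library of its own line. The BoM shWDR5 group was the only group in which PLAU per kilobase lay below PLAUR. The length used is that of all annotated exons of a gene together, 2949 bases for PLAU and 4457 for PLAUR. Other lengths would shift the ratio of every library by the same factor. Which gene is the higher therefore depends on this choice, but the fall within a line does not. The ratio combines values already tested and received no test of its own.

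**Figure D3:**
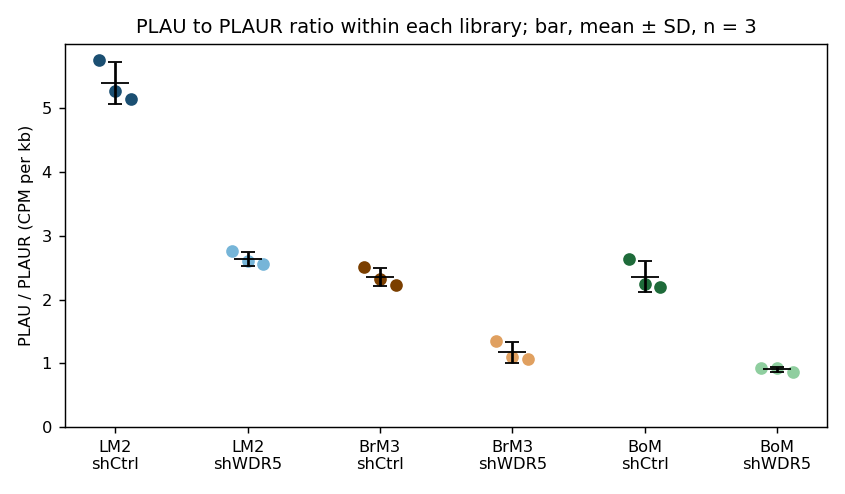
Ratio of PLAU to PLAUR in CPM per kilobase (y axis) in each library (points), by line and hairpin, with the mean and SD of 3 libraries. The ratio falls from 5.13 or more in LM2 shCtrl to 2.75 or less in LM2 shWDR5. With the exon lengths used it is below 1 in the 3 BoM shWDR5 libraries.

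The lines were then compared in their response to knockdown. The PLAU response differed from that in LM2 by -0.20 (95% interval -0.45 to 0.06) on the log2 scale in BrM3 and by -0.27 (-0.53 to -0.02) in BoM. The BoM response differed from the BrM3 response by -0.07 (-0.33 to 0.18). For PLAUR these differences were -0.20 (-0.58 to 0.17), 0.07 (-0.31 to 0.45) and 0.27 (-0.11 to 0.65). The edgeR fit called 0 members in each of these comparisons, with 0, 1 (PLAU, BoM against LM2) and 0 members at an unadjusted p under 0.05, and DESeq2 also called 0. The percentages of all genes called by edgeR were 0.00828%, 0% and 0.00828%. Of the 12081 tested genes, 352, 625 and 349 had an unadjusted p under 0.05 in the same order. A difference between lines in the size of the PLAU or PLAUR response was therefore not detected, and the intervals give the sizes that these data allow.

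MMP14, the membrane-anchored activator of MMP2, was abundant in all 3 lines and its log2 fold change after knockdown did not pass the test in any of them. The shCtrl and shWDR5 libraries were at 448, 585 and 658 against 554, 532 and 616 CPM in LM2, 545, 673 and 553 against 472, 545 and 601 CPM in BrM3, and 319, 308 and 245 against 260, 283 and 244 CPM in BoM. Each pair of groups overlapped. The 95% intervals of the log2 fold change were -0.28 to 0.30 in LM2, -0.42 to 0.16 in BrM3 and -0.44 to 0.15 in BoM. In each line the PLAU log2 fold change lay below this interval.

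MMP2, a gelatinase that cleaves type IV collagen, was at 12.1, 17.2 and 16.1 CPM in LM2 shCtrl and 8.81, 9.98 and 12.2 CPM in LM2 shWDR5 libraries, which overlapped (log2 fold change -0.57 ± 0.28 SE, adjusted p = 0.27). In BrM3 and BoM it had 6 to 32 and 0 to 12 counts per library, and the 95% intervals of the knockdown log2 fold change were wide, at -1.93 to 0.20 and -1.81 to 1.48. MMP3, which cleaves proteoglycans and activates other MMPs, had log2 fold changes of 0.23 ± 0.26 (SE) in LM2, 0.39 ± 0.28 in BrM3 and 0.18 ± 0.27 in BoM, none of which passed (adjusted p of 0.71, 0.44 and 0.70). In BrM3 the shCtrl libraries (2.10, 1.85 and 2.07 CPM) lay below the shWDR5 libraries (2.57, 2.79 and 2.55 CPM) without overlap. MMP13 had 0 to 13 counts in every library, with group means between 0.046 and 0.221 CPM, and its change was not detectable at this depth. Without the filter its adjusted p was 0.75 to 0.89 in the 3 lines.

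The 3 inhibitors had no call after knockdown. TIMP1 was at 175, 214 and 226 CPM in LM2 shCtrl and 227, 234 and 280 CPM in LM2 shWDR5 libraries, which did not overlap (log2 fold change 0.27 ± 0.16 SE, adjusted p = 0.39). TIMP3 was at 538, 595 and 479 against 572, 675 and 701 CPM in LM2, which overlapped (0.27 ± 0.10, unadjusted p = 0.015, adjusted p = 0.12). TIMP2, the partner of MMP14 in the activation of MMP2, lay within 0.13 of 0 on the log2 scale in every line. In BrM3 its shCtrl libraries (312, 307 and 314 CPM) lay above the shWDR5 libraries (268, 302 and 286 CPM) without overlap (-0.13 ± 0.08, adjusted p = 0.39). With a correction for each library's dependence on GC content, TIMP1 passed in LM2 (0.32, adjusted p = 0.034) and in BoM (0.36, adjusted p = 0.012), TIMP3 passed in LM2 (0.30, adjusted p = 0.036) and PLAUR passed in BrM3 (0.37, adjusted p = 0.0043). The same correction raised the share of all genes called to 16.4% in LM2, 24.4% in BrM3 and 28.5% in BoM, so these added calls are to be read against those shares.

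**Figure D4:**
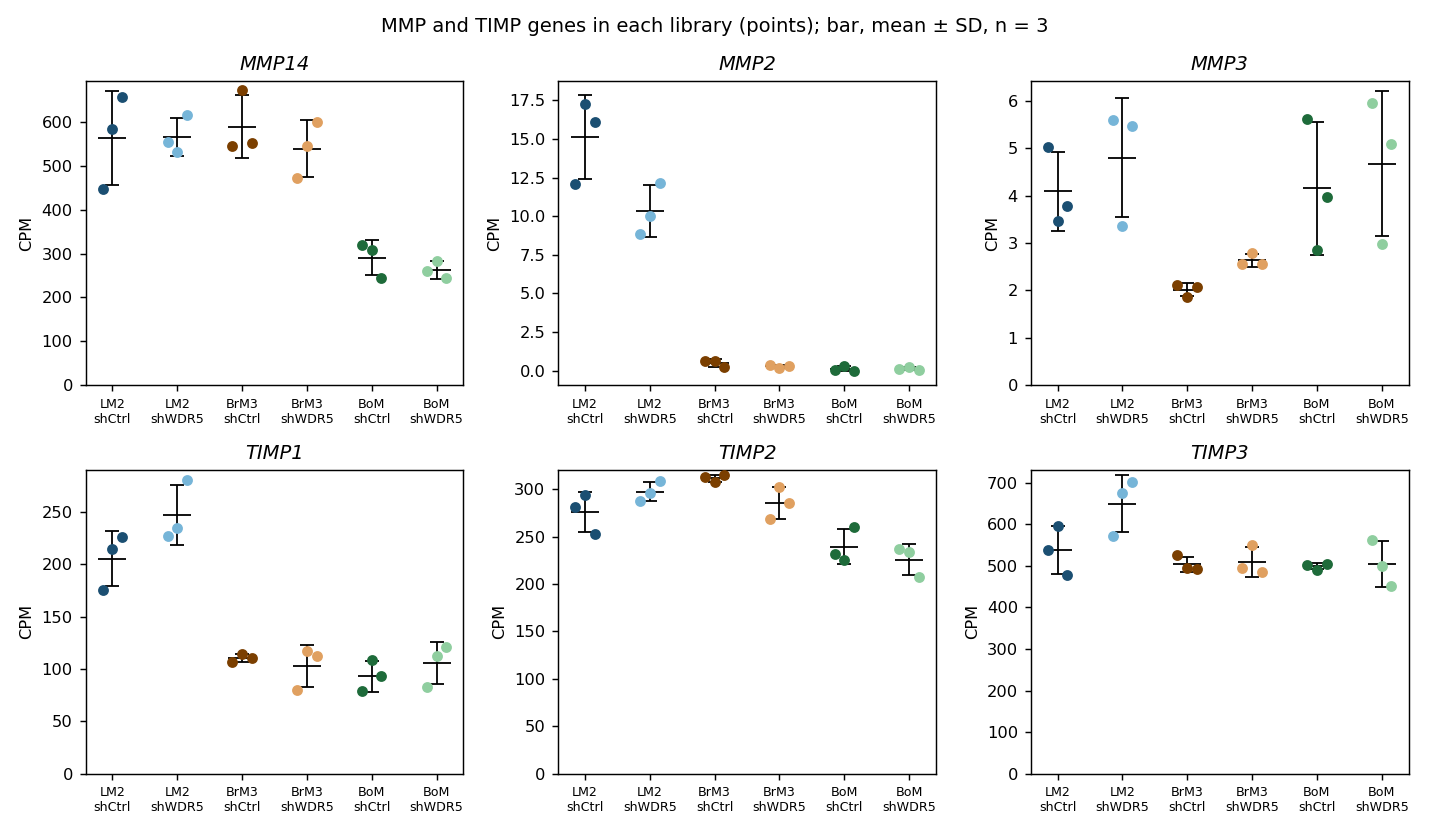
Level in CPM (y axis, a separate scale for each gene) of MMP14, MMP2, MMP3, TIMP1, TIMP2 and TIMP3 in each of the 18 libraries (points), with the mean and SD of 3 libraries. MMP14 is lowest in BoM, MMP2 is near 0 outside LM2, MMP3 is lowest in BrM3 and TIMP1 is highest in LM2.

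The lines themselves were compared among shCtrl libraries, the same libraries that serve as controls above, and again among shWDR5 libraries. In shCtrl, 4 of 8 members were called between BrM3 and LM2, 5 of 8 between BoM and LM2 and 6 of 8 between BoM and BrM3, where 47.6%, 51.8% and 37.6% of all genes were called. In shWDR5 the counts were 5, 6 and 5 of 8, against 50.2%, 56.8% and 44% of all genes. These counts include MMP2 and MMP3. Among the 6 members over the filter in every line, 2, 4 and 4 were called in shCtrl and 3, 5 and 4 in shWDR5. With so few genes these counts are descriptions, and the direction and size for each gene follow.

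PLAU and PLAUR separated the lines in different ways. PLAU in shCtrl cells was 482 ± 21.2 CPM (SD, n = 3) in BrM3, 417 ± 17.0 in LM2 and 154 ± 4.29 in BoM. BoM held 36.9% of the LM2 level (log2 fold change -1.44 ± 0.09 SE, adjusted p = 6.0e-10) and 31.9% of the BrM3 level (-1.65 ± 0.09, adjusted p = 3.2e-10). The difference between BrM3 and LM2 did not pass (0.21 ± 0.09, unadjusted p = 0.025, adjusted p = 0.053), although these groups did not overlap. PLAUR was 310 ± 22.4 CPM in BrM3, 118 ± 11.1 in LM2 and 99.2 ± 7.07 in BoM. BrM3 was 2.64-fold higher than LM2 (adjusted p = 1.1e-07) and 3.13-fold higher than BoM (adjusted p = 3.7e-08). The PLAUR difference between BoM and LM2 did not pass (-0.25 ± 0.13, adjusted p = 0.12), although these groups did not overlap either. Among shWDR5 libraries BoM stayed below both other lines in PLAU (log2 fold changes -1.71 and -1.72) and BrM3 above both in PLAUR (1.20 against LM2, and BoM at -1.37 against BrM3).

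MMP2 gave the widest spread between lines among the 8 tested members. Its shCtrl mean was 15.1 ± 2.72 CPM in LM2, 0.51 ± 0.24 in BrM3 and 0.13 ± 0.16 in BoM, where the libraries had 3, 12 and 0 counts. The log2 fold change against LM2 was -4.87 ± 0.36 (SE) in BrM3 and -6.62 ± 0.44 in BoM, where it rests on 15 counts, and every LM2 library stood above every library of the other lines. Since MMP2 was tested only because of its LM2 level, no p is given for these differences. Between BoM and BrM3, both under the filter, the groups overlapped and the log2 fold change was -1.75 ± 0.57, or -3.29 without BoM shCtrl replicate 2, the library with 12 of the 15 counts. Without that library the BoM value against LM2 was -8.16. LM2 also had the highest fibroblast marker sum, given above, but PDGFRB was higher in BoM shCtrl (9.16 CPM) than in LM2 shCtrl (4.59 CPM). PDGFRA was highest in BrM3 shCtrl, at 0.51 CPM. The 4 mesenchymal markers, none at 0 in every library, summed to 3349 to 4033 CPM in LM2 shCtrl libraries. The sums were 3192 to 3278 CPM in BrM3 and 3122 to 3553 CPM in BoM shCtrl libraries. On average SPARC, a matrix protein, was 372, 119 and 3.03 CPM in this order of lines, and AXL 1206, 779 and 917 CPM. VIM was 1571, 1678 and 1815 CPM and CD44 578, 672 and 586 CPM, both lowest in LM2. The part of these markers in the MMP2 difference was not tested.

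MMP14 was lower in BoM, at 291 ± 39.7 CPM, than in LM2 (564 ± 107 CPM, log2 fold change -0.96 ± 0.14 SE, adjusted p = 2.3e-05) and BrM3 (590.1 ± 71.5 CPM, -1.02 ± 0.14, adjusted p = 2.5e-05), between which the difference did not pass (0.07 ± 0.14, adjusted p = 0.72). MMP3 was lowest in BrM3, the line in which it was under the filter, at 2.01 ± 0.14 CPM in shCtrl against 4.09 ± 0.83 in LM2 (log2 fold change -1.01 ± 0.27) and 4.15 ± 1.40 in BoM (BoM against BrM3 1.05 ± 0.27, or 0.75 without BoM shCtrl replicate 1). In shWDR5 libraries the group means were 2.63 CPM in BrM3, 4.80 in LM2 and 4.67 in BoM.

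TIMP1 was highest in LM2, at 205 ± 26.6 CPM in shCtrl, with 53.8% of that level in BrM3 (log2 fold change -0.89 ± 0.16 SE, adjusted p = 2.2e-04) and 45.4% in BoM (-1.14 ± 0.16, adjusted p = 1.7e-05). TIMP2 was 311 ± 3.79 CPM in BrM3, 276 ± 21.0 in LM2 and 239 ± 18.6 in BoM. BoM was below BrM3 (-0.38 ± 0.08, adjusted p = 0.0020), and its difference from LM2 (-0.21 ± 0.08, adjusted p = 0.049) stood at the threshold and was lost in 13 of 18 fits without 1 library, at adjusted p up to 0.184 without LM2 shCtrl replicate 2. TIMP3 did not pass between any lines in shCtrl cells, at 537 ± 58.2, 504 ± 18.2 and 499 ± 7.38 CPM in LM2, BrM3 and BoM. In shWDR5 cells TIMP3 in LM2 (649 ± 68.2 CPM) was above BrM3 (509 ± 35.5 CPM, BrM3 against LM2 -0.35 ± 0.10, adjusted p = 0.0082) and BoM (504 ± 55.5 CPM, -0.36 ± 0.10, adjusted p = 0.0056). Whether the difference between lines itself depended on the hairpin did not pass for any member.

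Levels of different genes were compared per kilobase of exon. In LM2 shCtrl cells TIMP1 (142 CPM per kb), PLAU (141), MMP14 (122) and TIMP3 (117) formed the top of the order, and each neighbour overlapped the next. TIMP2 (44.5), PLAUR (26.4), MMP2 (3.21), MMP3 (2.20) and MMP13 (0.044) followed. MMP2 and MMP3 overlapped. In BrM3 shCtrl cells PLAU (164 CPM per kb) led, ahead of MMP14 (128), TIMP3 (110), TIMP1 (76.4), PLAUR (69.6) and TIMP2 (50.1), with no overlap between neighbours. In BoM shCtrl cells TIMP3 (109 CPM per kb) led, then came TIMP1 (64.4), MMP14 (62.9) and PLAU (52.2), neighbours that overlapped, and then TIMP2 (38.6) and PLAUR (22.3). TIMP3 kept a nearly equal level in the 3 lines while the genes around it changed place.

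**Figure D5:**
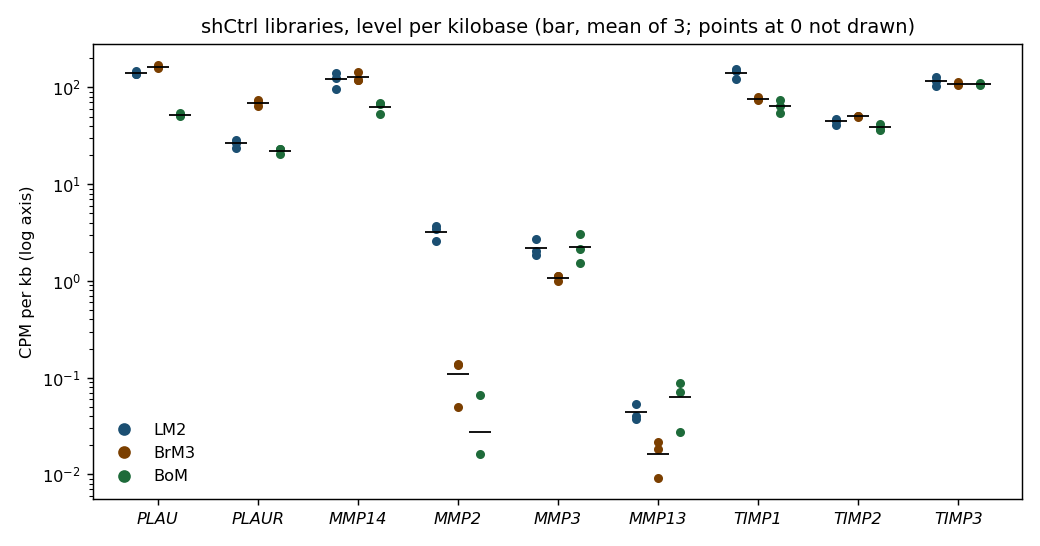
Level in CPM per kilobase of exon (y axis, log scale) of the 9 genes in the 3 shCtrl libraries of each line (points, bar at the mean, libraries at 0 not drawn). TIMP3 is level across lines, PLAU and MMP14 are lowest in BoM, PLAUR is highest in BrM3, and MMP2 falls from 3.21 in LM2 to 0.11 in BrM3 and 0.028 in BoM.

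The wider protease system was read from a list of 61 further genes, of which 36 were tested. After knockdown 1 rose and 2 fell in LM2, 2 rose and 6 fell in BrM3, and 4 rose and 5 fell in BoM. Over all tested genes LM2 had 179 higher and 577 lower calls, BrM3 347 higher and 951 lower, and BoM 653 higher and 1293 lower. Of the 36, 7 were over the filter in only 1 or 2 lines, and among the other 29 the counts were 1 and 1, 2 and 2, and 3 and 2. The list's median log2 fold change was 0.12, -0.02 and 0.01, against 0.00, -0.01 and 0.02 over all genes. HPSE (heparanase, which cleaves heparan sulfate) fell in all 3 lines, from 16.3 to 8.33 CPM in LM2, 28.1 to 14.9 in BrM3 and 14.8 to 4.79 in BoM (log2 fold changes of -0.96, -0.92 and -1.62, adjusted p of 1.4e-04, 1.4e-04 and 3.6e-07). SPINT1, a Kunitz inhibitor of cell surface serine proteases, was over the filter in LM2 shCtrl libraries alone, where it was highest, and is described without a p. Its group means were 3.68 and 1.82 CPM in LM2 shCtrl and shWDR5, 2.46 and 0.78 in BrM3, and 1.28 and 0.27 in BoM. By role, with all 36 counted, none of the 4 further MMPs tested rose and 1 fell, in BrM3. Of 4 MMP inhibitors or partners, 1 fell in BrM3 and 1 in BoM. Of 8 further plasminogen system genes, 1 rose in BrM3 and 2 in BoM. Of 11 ADAM and ADAMTS genes, 1 rose in BrM3 and 2 in BoM. Of 9 other pericellular genes, 1 rose and 2 fell in LM2, and 4 fell in each of BrM3 and BoM. These role counts are descriptions, since they include genes over the filter in only 1 or 2 lines. Such calls were SPINT1 in LM2, and MMP19, TIMP4, CTSS and SPINT1 in BrM3. In BoM they were TIMP4, SERPINB2, CTSS and SPINT1.

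Between lines in shCtrl cells, 13 of the 36 were higher and 12 lower in BrM3 than in LM2, 6 higher and 16 lower in BoM than in LM2, and 4 higher and 15 lower in BoM than in BrM3. Among the 29 over the filter in every line these counts were 12 and 6, 5 and 11, and 2 and 13. Over all tested genes they were 2919 and 2832, 3135 and 3121, and 2156 and 2392. The shares of all genes called were 47.6%, 51.8% and 37.6%. ADAMTS1, a secreted protease of proteoglycans, had the largest positive change, from 4.37 CPM in LM2 to 204 in BrM3 and 239 in BoM (log2 fold changes of 5.61 and 5.84, adjusted p of 9.1e-12 and 9.9e-12). SERPINB2, an inhibitor of urokinase, was next, at 2.10, 8.37 and 6.44 CPM in the same order (2.06 and 1.68). ADAM12 (-2.71) and the membrane-type MMP16 (-2.08) were lower in BrM3 than in LM2. FURIN, the convertase that processes MMP14, was at 121 CPM in LM2 and 15.6 CPM in BoM (-2.96), and the lysosomal protease CTSS at 16.8 and 2.62 CPM (-2.67). MMP19 (1.18) and the inhibitor TIMP4 (0.91) were higher in BoM than in BrM3, and ADAM8 (-2.30) and CTSS (-1.76) lower. Of the genes named here, ADAM12 was over the filter in LM2 alone, CTSS in LM2 and BrM3, MMP19 and TIMP4 in LM2 and BoM, and SERPINB2 in BrM3 and BoM, so their log2 fold changes between lines are descriptions.

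For each tested member the 3 genes with the most similar pattern were found by Pearson correlation of log2 CPM over the 18 libraries, which share 3 lines and 2 hairpins, so that the values mainly describe line levels. PLAU was most like KCNK1, CT83 and SRPX (0.98 each), and PLAUR was most like DEAF1 (0.97), VASP and SHC3 (0.96 each). MMP14 was most like TSPAN9 and GALNT2 (0.99 each) and PACS2 (0.98), and MMP2 most like SNED1 (0.99), TTC23 and ST3GAL5 (0.98 each). TIMP1 was most like CIB1, MLPH and ADAMTS17 (0.97 each), and TIMP2 most like CERS2, MREG and UBQLN2 (0.91 each). The values were lower for MMP3 (NAMPTP1 at 0.91, ARHGAP31 at 0.89 and ZNF551 at 0.88) and lowest for TIMP3 (GRB10 at 0.83 and TMEM131L at 0.82).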

How the data were processed

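Cells were processed for paired-end sequencing of stranded mRNA libraries. The authors aligned reads to hg38 with STAR (2.7.0 in the submitters' processing notes) and deposited raw counts per gene, without normalization. The strand setting of the counting is not given in the sources used here. The deposited table holds 0 spike-in rows, so scaling by spike-ins was not analysed here. A deposited table of the authors' DESeq2 fold changes and adjusted p-values per line was not used. Libraries were grouped by their titles. A second label, for the source material, names another line for 12 of the 18 libraries and was not used. The cell line label reads BrM2 where the study writes BrM3.

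Counts of 6 groups were fitted together (12 residual degrees of freedom) with edgeR 4.0.16 in R 4.3.3, TMM scaling, the quasi-likelihood test and Benjamini-Hochberg adjustment over 12081 genes. A gene was called at an adjusted p under 0.05. The filter was the HTSFilter criterion recomputed, a highest normalized count of at least 146 (Jaccard index 0.970). Standard errors come from the F statistic, and 95% intervals from the same fit. CPM per kb uses the length of all exons of a gene together in GENCODE 44 on GRCh38, not that of the transcript expressed. Replicates differed by more than sampling noise (chi-square per gene 5.15 to 90.6 over 18 pairs). Depth limits precision for MMP2, MMP3 and MMP13, and intervals cover the spread between these libraries only. P-values measure the spread between passages within a group, estimated from all 6 groups together, and every group derives from MDA-MB-231.

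With the group mean removed, same-numbered shCtrl and shWDR5 libraries correlated at 0.57, 0.32 and 0.14 in BoM. The values were 0.58, 0.03 and 0.73 in LM2 and 0.55, 0.52 and -0.18 in BrM3. Same-numbered libraries of different lines ran from -0.38 to 0.64. This range holds the BoM and BrM3 values and the LM2 values except 0.73, which lies above it. The LM2 values also ran down to 0.03, so these correlations do not settle whether the numbers from the titles mark pairs in any line. Alternatives were DESeq2 1.42.0, filterByExpr, no filter, a GC correction (loess, span 0.5), the replicate block, each line alone and leaving out each library. On simulated counts for LM2 (12081 genes) the fit recovered 33.3% of changes of 0.5 and 85.1% of changes of 1 on the log2 scale, with 10 false calls.

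The members and gene lists were chosen with earlier results of these data known. Named genes are the 9 members, WDR5, list genes called one way in all 3 knockdown comparisons, the 2 largest changes in each direction per pair of lines in shCtrl, the 3 most similar genes per member, and markers. A gene that meets this rule is left out of the text. C10orf55, named for its overlap, was chosen after its values were seen.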

Additional observations from a re-analysis of the deposited data

How the results depend on the processing

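In the knockdown comparisons the members called were 2 in LM2, 1 in BrM3, 2 in BoM and 2 in the mean of lines. With the GC correction the counts were 4 in LM2, 2 in BrM3, 3 in BoM and 4 in the mean of lines, where 16.4%, 24.4%, 28.5% and 51.3% of all genes were called, and with LM2 fitted alone 1 (2.4% of all genes). Calls over all genes were 179 higher and 577 lower in LM2, 347 and 951 in BrM3, 653 and 1293 in BoM and 1880 and 2400 in the mean of lines. They were 992 and 986, 1646 and 1299, 1911 and 1538, and 3753 and 2447 with the GC correction, and 409 and 733, 638 and 1130, 1072 and 1389, and 2377 and 2387 with DESeq2. Leaving out 1 library gave 1 to 2 in LM2, 1 to 2 in BrM3 and 2 in the other comparisons. Counts for line and response comparisons stayed within 1.5 times under every alternative. Of 69 member values, 1649 alternative values kept direction and side of the threshold in 1569 cases, 34 lost a call, 18 gained one and 28 changed sign, 0 of them for a value called in the report's fit. The cause was not tested. MMP2, MMP3 and MMP13 are limited by depth.

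The replicate block within each line (6 residual degrees of freedom) alone changed no member's call in BoM (26.3% of all genes called). It gave 3 calls in LM2, with MMP2 added (-0.56, adjusted p = 0.034), and 2 in BrM3, with PLAUR added (0.26, adjusted p = 0.045). In the mean of lines it gave 3, with MMP3 added (0.25, adjusted p = 0.031). The shares of all genes called were 11.9%, 18.8% and 46.9% in the same order. With the GC correction as well, the block gave 5 calls in LM2, 2 in BrM3, 3 in BoM and 5 in the mean of lines. The shares of all genes called were then 28.3%, 37%, 39.9% and 60.3%. An additive replicate block across lines left TIMP2 between BoM and LM2 at -0.20 (adjusted p = 0.052).

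Sign changes concerned log2 fold changes that were not called. MMP2 in BoM rested on 15 counts in shCtrl and 12 in shWDR5, so its direction was not determined. Under the GC correction, without and with the block, MMP14 was 0.016 and 0.016 in BrM3, 0.050 and 0.054 in BoM and 0.048 and 0.049 in the mean of lines. TIMP1 in BrM3 was 0.023 and 0.021, TIMP2 0.041 and 0.044 in BoM and 0.049 and 0.051 in the mean of lines, and MMP2 in BoM 0.0061 and 0.28, or 0.088 with the block alone. TIMP2 in the mean of lines was 0.0010 under filterByExpr. Leaving out 1 library, MMP14 in LM2 ran from -0.13 to 0.14, TIMP1 in BrM3 from -0.19 to 0.054, TIMP3 in BrM3 from -0.043 to 0.051, TIMP3 in BoM from -0.069 to 0.090, MMP3 in BoM from -0.047 to 0.49 and MMP2 in BoM from -0.67 to 1.38. The response difference between BoM and LM2 ran from -0.022 to 0.17 for PLAUR, and that between BoM and BrM3 from -0.13 to 0.014 for PLAU. TIMP2 between BoM and LM2 in shCtrl lost its call under filterByExpr (adjusted p = 0.058), without a filter (0.26) and with the GC correction (0.16), and TIMP3 between BrM3 and LM2 in shWDR5 without a filter (0.061).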

Other observations

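MMP3 and MMP13 lie in a run of 9 MMP genes on chromosome 11 (GRCh38 chr11:102520508-102955732), and these neighbours were read together after their values were seen. MMP1, an interstitial collagenase, was at 222 to 824 CPM, against 1.85 to 5.96 CPM for MMP3. The other 7 genes (MMP7, MMP8, MMP10, MMP12, MMP13, MMP20 and MMP27) had at most 18 counts in any library. MMP1 was higher in BrM3 (687 CPM in shCtrl) than in LM2 (283 CPM, log2 fold change 1.28 ± 0.18 SE, adjusted p = 2.1e-05), the opposite direction to MMP3 between the same lines. After knockdown MMP1 was at -0.17 ± 0.18 in LM2, 0.23 ± 0.18 in BrM3 and 0.25 ± 0.18 in BoM on the log2 scale, none of which passed.

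Ratios of MMP14 to TIMP1 and of MMP14 to TIMP2 within a library were computed from CPM per kilobase, as a description of RNA levels alone. MMP14 to TIMP1 was 0.85 ± 0.06 (SD, n = 3) in LM2 shCtrl libraries, 1.67 ± 0.15 in BrM3 and 1.00 ± 0.24 in BoM. MMP14 to TIMP2 was 2.77 ± 0.69, 2.55 ± 0.34 and 1.65 ± 0.33 in the same order. No test was made on these ratios.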
